A study of Mus musculus with 15 samples.

Results

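The cadherins and protocadherins are a family of membrane proteins through which cells recognise and hold on to each other, and the CpG methylation of their genes in mouse sperm is described here. The genes were chosen by name: every gene whose symbol starts with Cdh and a digit or with Pcdh in the RefSeq gene table (93 genes). A CpG was counted as theirs when it lay inside a gene span or within 2 kb of either end, and once only where spans overlap. This gave 719 of the 204492 CpG positions in the deposited tables, at 68 of the 93 genes. Of these, 35 CpGs lay in the 3 protocadherin clusters (Pcdha, Pcdhb and Pcdhg, 40 of 58 genes) and 684 at genes that stand alone (28 of 35 genes). The sperm came from male C57BL/6 mice of the generation labelled G1. One group had a control diet (7 libraries) and the other carried the diet label PR, which the series' design text writes out as protein restricted (8 libraries). The DNA was cut with MspI, an enzyme that cuts at CCGG, and the fragments were read after bisulfite treatment (reduced representation bisulfite sequencing), which leaves methylated cytosines as C. The series' title names the ribosomal DNA. The labels do not say whether the G1 males or their parents ate the diet, and give no litter, pool or batch. Strain, sex, tissue and generation were the same in both groups.

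Classical cadherins (types I and II) bind their own kind on the neighbouring cell through calcium-dependent extracellular repeats and connect to the actin cytoskeleton through catenins. Protocadherins have more such repeats and do not use the catenin link. The clustered protocadherin genes each have their own promoter and first exon, from which neurons choose a few, and methylation of those promoters is one of the known controls on that choice. In sperm, as in most cells, gene bodies are largely methylated and CpG-rich promoters are largely not.

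The RefSeq promoter table (build GRCm38.p6) held 25 windows for 22 of the member genes, each running from 250 bases before a transcription start to 50 after it. None of the 25 windows held a listed CpG, against 0.98% of all 32851 windows in the table. The member windows held 368 CpGs in their sequence, from 2 to 38 in a window. The cut site CCGG (the same on both strands, with a CpG in its middle) occurred in 13 of them, 52%, against 52.8% of all windows. The sequences below show what the methylation values do not reach: the most CpG-rich member window (Cdh22), the next (Cdh24), the window of Cdh6, whose span holds the most CpGs under 80% methylation, and the window with the fewest CpGs (Cdh10). Capitals mark each CpG, and all are written 5′ to 3′ on the strand of the gene.
Cdh22 promoter, chr2:165234688-165234987, minus strand: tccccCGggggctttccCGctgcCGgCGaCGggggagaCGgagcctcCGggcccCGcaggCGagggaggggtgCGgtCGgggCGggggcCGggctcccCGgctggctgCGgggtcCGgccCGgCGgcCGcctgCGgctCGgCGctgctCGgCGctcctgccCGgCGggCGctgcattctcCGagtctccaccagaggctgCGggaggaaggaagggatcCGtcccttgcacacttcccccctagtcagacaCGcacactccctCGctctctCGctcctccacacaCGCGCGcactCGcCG
Cdh24 promoter, chr14:54641315-54641614, minus strand: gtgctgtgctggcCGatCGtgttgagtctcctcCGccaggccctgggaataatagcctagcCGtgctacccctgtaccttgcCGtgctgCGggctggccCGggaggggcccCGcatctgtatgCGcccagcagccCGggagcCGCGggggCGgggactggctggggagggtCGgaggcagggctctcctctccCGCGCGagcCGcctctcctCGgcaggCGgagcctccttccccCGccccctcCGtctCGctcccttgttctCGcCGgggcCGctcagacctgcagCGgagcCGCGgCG
Cdh6 promoter, chr15:13173626-13173925, minus strand: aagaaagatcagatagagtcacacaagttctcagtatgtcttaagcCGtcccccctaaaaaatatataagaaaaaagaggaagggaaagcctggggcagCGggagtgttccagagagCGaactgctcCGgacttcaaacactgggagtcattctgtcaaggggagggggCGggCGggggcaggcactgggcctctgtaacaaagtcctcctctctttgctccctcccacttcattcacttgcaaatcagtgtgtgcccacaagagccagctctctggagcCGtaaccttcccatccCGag
Cdh10 promoter, chr15:18820079-18820378, plus strand: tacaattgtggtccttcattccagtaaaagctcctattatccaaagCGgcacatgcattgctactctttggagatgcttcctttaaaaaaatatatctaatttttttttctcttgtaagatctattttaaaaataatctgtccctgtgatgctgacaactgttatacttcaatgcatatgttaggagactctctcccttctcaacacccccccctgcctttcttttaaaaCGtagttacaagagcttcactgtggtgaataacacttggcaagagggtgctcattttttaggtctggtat
The Cdh22 window held 38 CpGs and 8 CCGG sites, the Cdh24 window 30 and 3, the Cdh6 window 8 and 1, and the Cdh10 window 2 and 0. The deposited positions are a selection: in every library each of the 204492 positions had at least 11 methylated reads. A CpG without methylation in sperm could therefore not be listed, and the missing promoter CpGs say nothing of the level there.

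Total reads over the listed positions were 7846118 to 11841657 in the control libraries and 6650912 to 10712016 in the protein restricted ones. A member CpG had a median of 31.9 reads per library, so that 1 read moved a value by several points and the precision of a single CpG is limited by counting. As a check of the label sperm, windows meant to hold paternally methylated imprinted regions, which sperm methylates, were looked at. Those of Meg3 (0 to 20 kb) and Rasgrf1 (20 to 40 kb) held 7 listed CpGs, with means of 92.58% to 97.02% over the libraries. The window of H19 (0 to 5 kb) held 0. All listed CpGs had a mean of 95.33%, so these levels cannot check the label. The promoters of 10 maternally methylated imprinted genes held 0 listed CpGs and so check nothing. No pair of libraries agreed within sampling noise over all CpGs (105 pairs, mean chi-square per CpG 1.07 to 1.85). The p-values below compare libraries, since nothing says whether each came from a separate mouse. The quasi-binomial model held the dispersion (observed variance over that of binomial counting) at 1 or more. Of the member CpGs, 44.1% had a dispersion over 1. For the others the quasi-binomial p rests on read counting, not on the observed spread between libraries.

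The listed cadherin and protocadherin CpGs were almost fully methylated, and the diets gave the same level to within a fraction of a point. The mean over the 719 CpGs was 96.04% and the median CpG 98.21%, beside 95.33% and 98.18% over all 204492. Of the 719, 655 (91.1%) were at or above 90% and 28 (3.89%) under 80%, against 89.7% and 5.59% of all CpGs. Control libraries ranged from 95.80% to 96.15% with a median of 96.06%, and protein restricted libraries from 95.69% to 96.26% with a median of 96.12%. The protein restricted range held the control range, and the means were 96.04% ± 0.122 (SD, n = 7) and 96.05% ± 0.203 (SD, n = 8), a difference of 0.0137 points. Of the 719 CpGs, 693 lay inside a span and 26 in the 2 kb beside one; 93 also lay inside another gene, so that they are not the cadherins' alone. Exons, introns and UTRs were not analysed here.

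**Figure D1:**
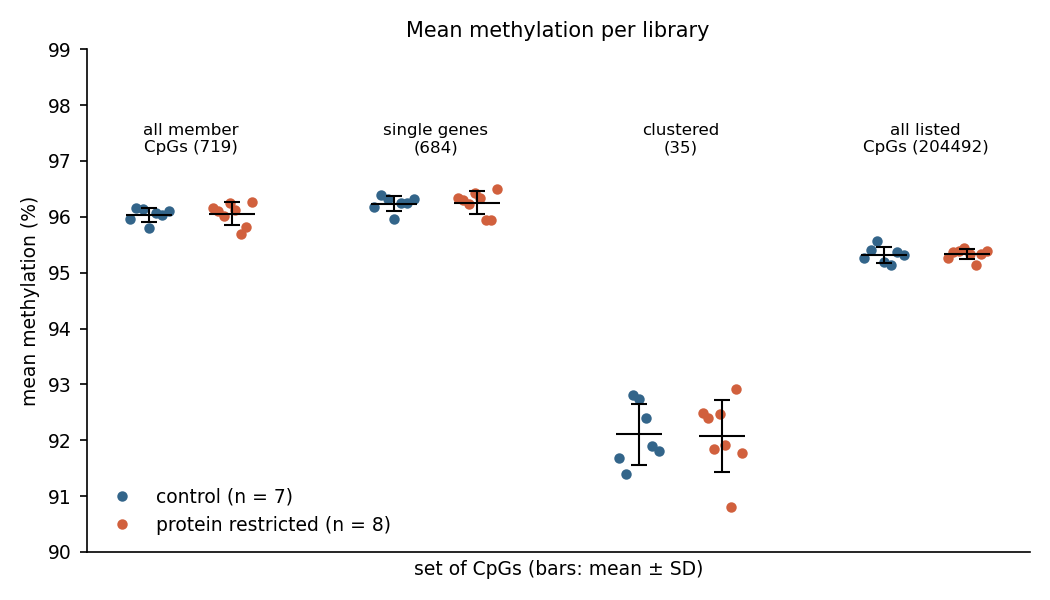
Mean methylation (%) of 4 sets of CpGs in each library, with mean ± SD bars per diet; the axis starts at 90%. The clustered protocadherin CpGs lay at 90.81% to 92.92%, below the single genes in every library, and the diets overlapped in all 4 sets.

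The listed CpGs of the clustered protocadherins had a lower mean than those of the single genes. The 35 clustered CpGs had a mean of 92.09% and a median of 97.19%, and the 684 CpGs of the single genes 96.25% and 98.23%. Cdh8, Cdh7, Pcdh9, Cdh6 and Cdh19 (1 CpG) had gene means below 92.09%, while 22 of the 28 single genes were at 95% or more. The median depth was 36.8 reads per library at clustered and 31.7 at single-gene CpGs. With at least 11 methylated reads at every position, deeper CpGs can be listed at lower levels. What depth adds to the gap was not tested. The clustered mean was below the single mean in all 15 libraries, by −4.16 points ± 0.614 on average (SD, n = 15; −5.13 to −3.03). All libraries read the same CpGs, so this SD does not measure how far the CpGs of a set differ. In control libraries the gap was −4.13 ± 0.633 and in protein restricted libraries −4.18 ± 0.639. Part of the gap lay in a tail: 5 of 35 clustered CpGs (14.3%) were under 80%, against 23 of 684 (3.36%) at single genes. CpGs of 1 fragment are not independent, and when CpGs at most 300 bases apart were averaged first, an alternative chosen after seeing the data, the 20 clustered fragments were at 88.65% and the 284 single-gene fragments at 95.63%, with medians of 95.17% and 98.02% and with 25% and 4.93% under 80%. Without Cdh13, the gene with the most CpGs, the gap was −3.69 points (also chosen after seeing the data). The clusters' mean by diet was 92.11% ± 0.549 in control libraries (91.39% to 92.81%, median 91.90%) and 92.08% ± 0.646 in protein restricted ones (90.81% to 92.92%, median 92.15%).

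The 3 clusters lie side by side on chromosome 18, from the start of Pcdha1 at 36930285 to the end of the Pcdhg spans at 37841873 (mm10). Since the alternative first exons of the Pcdha genes, and those of the Pcdhg genes, share their last exons, the spans nest: 27 of the 35 CpGs lay in more than 1 span. Pcdha1 to Pcdha7 held the same 13 CpGs, Pcdha8 to Pcdha12 the same 12, Pcdhac1 5 and Pcdhac2 3. All 35 CpGs also lay within the spans of other gene models, among them Gm37013, Gm38666 and Gm38667. The Pcdha CpGs had a mean of 90.47% (control 90.13% ± 0.858, protein restricted 90.76% ± 1.27). The Pcdhg CpGs, 14 in all, were at 93.53% (93.35% ± 0.657 and 93.68% ± 0.844). Of the 22 Pcdhb genes, which are single-exon genes with no shared end, only Pcdhb2, Pcdhb5, Pcdhb12 and Pcdhb19 held a CpG, 8 in all, at 92.22%. The Pcdhb mean was 93.12% ± 1.78 in control libraries (90.82% to 95.66%, median 93.42%) and 91.43% ± 1.21 in protein restricted ones (89.58% to 93.22%, median 91.53%). These ranges overlapped, and no Pcdhb CpG had an unadjusted p under 0.05.

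**Figure D2:**
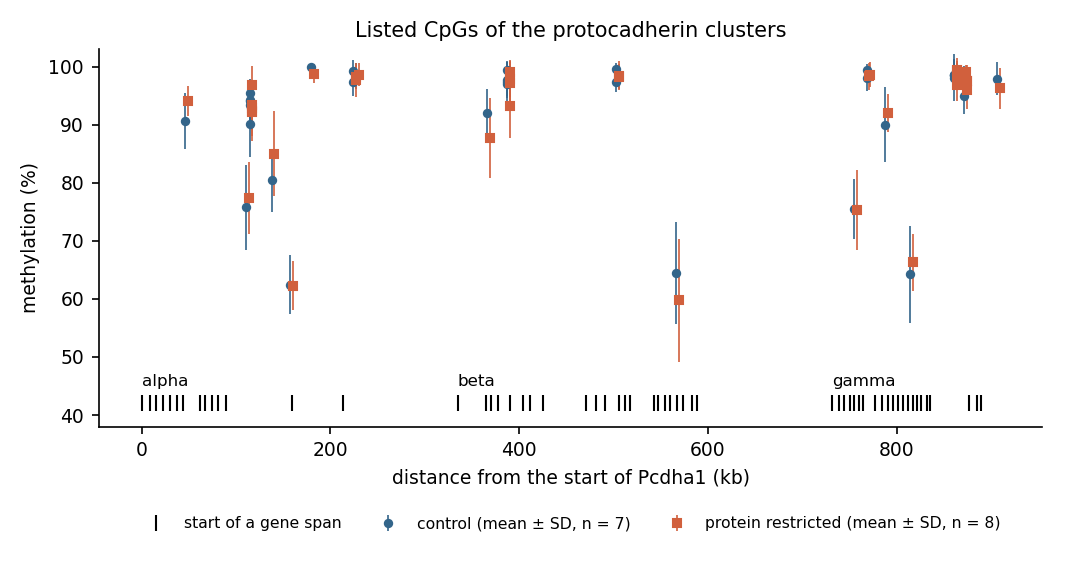
Methylation (%) of the 35 listed CpGs of the protocadherin clusters against the distance (kb) from the start of Pcdha1, as mean ± SD over 7 control and 8 protein restricted libraries (shifted apart sideways; bars can pass 100%); ticks mark starts of gene spans. The same 5 CpGs lay under 80% in both diets; 28 of the 35 had means of at least 90%.

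The 5 clustered CpGs under 80% were spread over the 3 clusters, 2 in Pcdha, 1 in Pcdhb and 2 in Pcdhg. The lowest was the only listed CpG of Pcdhb19, 1125 bases after the start of its span. It was at 50%, 66.67% and 76.47% (lowest, median and highest) in control libraries and 37.50%, 60.95% and 74.42% in protein restricted ones. A Pcdha CpG that lies 1145 bases before the start of Pcdhac1 was at 62.46% ± 5.12 on the control diet and 62.30% ± 4.22 on the restricted one. In Pcdhg, the CpG 1657 bases before the start of Pcdhga10 was at 64.24% ± 8.39 and 66.29% ± 4.84. The Pcdhg CpG 1113 bases after the start of Pcdhga4 was at 75.50% ± 5.14 and 75.37% ± 6.91. The remaining one, in Pcdha, lay 22567 bases after the start of Pcdha12, at 75.77% ± 7.38 and 77.40% ± 6.24. In each of the 5 the diets overlapped. Of these 5 CpGs, 4 were within 2 kb of a span start, and of the other 30 clustered CpGs 7 were; only 1 of the 35, 789 bases before the start of Pcdhgb4, was within 1 kb, at 90.02% ± 6.5 and 92.03% ± 3.23.

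Among the single genes the type I classical cadherins were the most evenly methylated. Their 98 CpGs, at Cdh1 (E-cadherin of epithelia), Cdh2 (N-cadherin of neurons and muscle), Cdh3 (P-cadherin) and Cdh4 (R-cadherin), had a mean of 98.00%, and none was under 90%. The lowest, in Cdh3, was at 91.89%. The remaining type I gene, Cdh15, held no listed CpG. By library they were at 97.30% to 98.11% in control (median 97.94%) and 97.84% to 98.50% in protein restricted (median 98.18%). The ranges overlapped, with means of 97.84% ± 0.264 and 98.14% ± 0.236, a difference of 0.305 points.

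The type II cadherins, many of them expressed in sets that mark groups of neurons, were less even. All 13 held a listed CpG, 171 in all, with a mean of 94.26%, and 14 of the 171 (8.19%) were under 80%. The gene means of 5 were under 95%, namely Cdh8 (88.24%), Cdh7 (90.62%), Cdh6 (91.55%), Cdh18 (92.57%) and Cdh19 (78.53%, from 1 CpG). Among the 15 other single genes with a listed CpG, Pcdh9 alone had a mean under 95% (90.85%). Cdh11, the cadherin of bone-forming cells, was at 97.29% and Cdh24 at 98.43%; Cdh5, the VE-cadherin of endothelium, had 1 CpG, at 99.08%. By diet the type II CpGs were at 94.21% ± 0.249 in control and 94.30% ± 0.182 in protein restricted libraries.

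The cadherins that fit neither type held 308 CpGs with a mean of 97.23%. Of these, 229 lay in Cdh13 (T-cadherin, which is held in the membrane by a lipid anchor), whose span of 1185 kb was the second longest among the members. Cdh13 was at 97.17%. Cdh23 held 54 CpGs at 96.95% and Pcdh15 held 42 at 96.15%; their proteins together form the tip links of hair cells in the inner ear. Cdh17 (98.39%) and Cdh26 (98.40%) had no CpG under 95%, and Cdh16 held no listed CpG. The only CpGs of the 719 at 100% in every library were Cdh23 CpG 23 and Cdh13 CpG 56 and CpG 202, numbered along the chromosome within each gene.

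The delta protocadherins, non-clustered genes expressed mainly in the nervous system, held 65 CpGs with a mean of 94.24%. Pcdh9 held 35 of them and all 5 under 80%. Pcdh7 (98.20%), Pcdh17 (98.30%), Pcdh1 (98.33%), Pcdh19 (98.44%) and Pcdh11x (96.96%) had none under 95%, while Pcdh8, Pcdh10 and Pcdh18 held no listed CpG. By library the group was at 94.09% to 94.85% in control (median 94.39%) and 93.36% to 94.66% in protein restricted (median 94.21%), with means of 94.44% ± 0.284 and 94.08% ± 0.486, and the ranges overlapped. Pcdh12 and Pcdh20 also held no listed CpG.

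**Figure D3:**
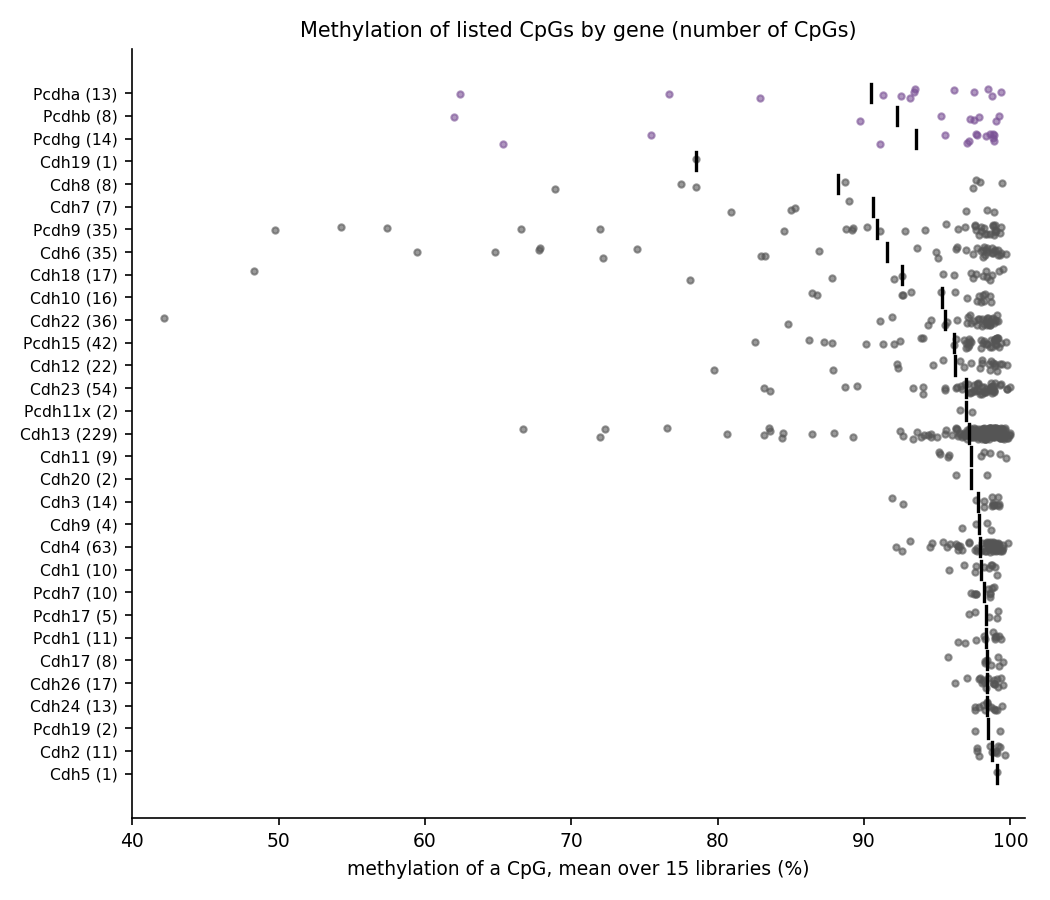
Methylation (%) of every listed member CpG, averaged over the 15 libraries, by gene or cluster (points), with the mean of the CpGs (black bar) and their number in parentheses. Of the 28 single genes, 16 had a mean of at least 97% and 6 a mean under 95%. The points under 80% lay in 8 single genes and the 3 clusters, with Cdh6 and Pcdh9 holding 11 of the 28 points.

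Values under 80% were therefore few among the CpGs (3.89%, against 5.59% of all), and sat in 8 of the 28 single genes and in the clusters. Of the 23 single genes with at least 3 listed CpGs, 30.4% held one, against 21.4% of all such genes. The median number of listed CpGs was 14 in these single genes and 6 in all. Cdh6 held 6, Pcdh9 5, Cdh13 4, Cdh8 3, Cdh18 2, and Cdh12, Cdh19 and Cdh22 1 each. In Cdh6, a cadherin of kidney and developing brain, 5 of the 6 were neighbours in 1 stretch of chr15:13067389-13068029 (mm10). Over these 5 CpGs the libraries were at 62.40% to 79.28% in control and 62.26% to 76.33% in protein restricted. The means were 69.49% ± 5.82 and 69.35% ± 5.47, and the groups overlapped over nearly their whole range. Nearer the end of the gene, 18 listed CpGs stood at 96.66%.

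In Pcdh9 the low CpGs formed 2 pairs and 1 lone CpG. The pair at chr14:93621381-93621594 stood at 53.87% ± 2.92 in control and 53.31% ± 9.78 in protein restricted libraries, which ranged from 50.88% to 59.09% and from 36.98% to 66.67%. The spread over protein restricted libraries was the wider, on both sides of the control range; a difference in spread was not tested. The pair at chr14:93140268-93140287 was at 71.54% ± 3.53 (67.50% to 76.15%) and 67.27% ± 5.29 (60.29% to 74.24%), with overlap. The lone CpG, at position 93653636 of chromosome 14, was at 50.61% ± 6.11 and 57.52% ± 10.4. The Cdh8 pair at chr8:99038086-99038229 stood at 76.46% ± 6.91 and 79.34% ± 4.69.

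The least methylated member CpG was Cdh22 CpG 36, at position 165235935 of chromosome 2. It lay 1011 bases before the start of the gene span and upstream of the CpG-rich window printed above. It was at 34.43%, 40.85% and 48.00% (lowest, median and highest) in control libraries and 37.70%, 42.86% and 51.43% in protein restricted ones. The groups overlapped, at 40.70% ± 4.24 and 43.44% ± 4.69, a difference of 2.74 points with a quasi-binomial p = 0.409 and an adjusted p of 1 (adjusted over all CpGs). Next came Cdh18 CpG 7, at position 23093865 of chromosome 15 inside the span. Its levels were 32.69%, 44.90% and 61.76% in control and 37.50%, 49.07% and 67.44% in protein restricted libraries, with overlap. Cdh6 CpG 35, 769 bases inside the span from the start of the span, was at 60.88% ± 7.70 and 58.18% ± 6.98. The Cdh6 window printed above belongs to another start, at 13173675, and this CpG, at 13175638, lies upstream of that window. A start was taken as that of a promoter window or of the span, whichever was nearer. Cdh6 CpG 35 and 9 CpGs of Cdh24 alone, of the 325 single-gene CpGs with a known strand, lay within 1 kb of one. The 9 lay 719 to 851 bases before the start of the Cdh24 span, inside the neighbouring gene Acin1, and had means of 97.57% to 99.41%. The start of the Cdh24 window printed above, at 54641364, is further from them.

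**Figure D4:**
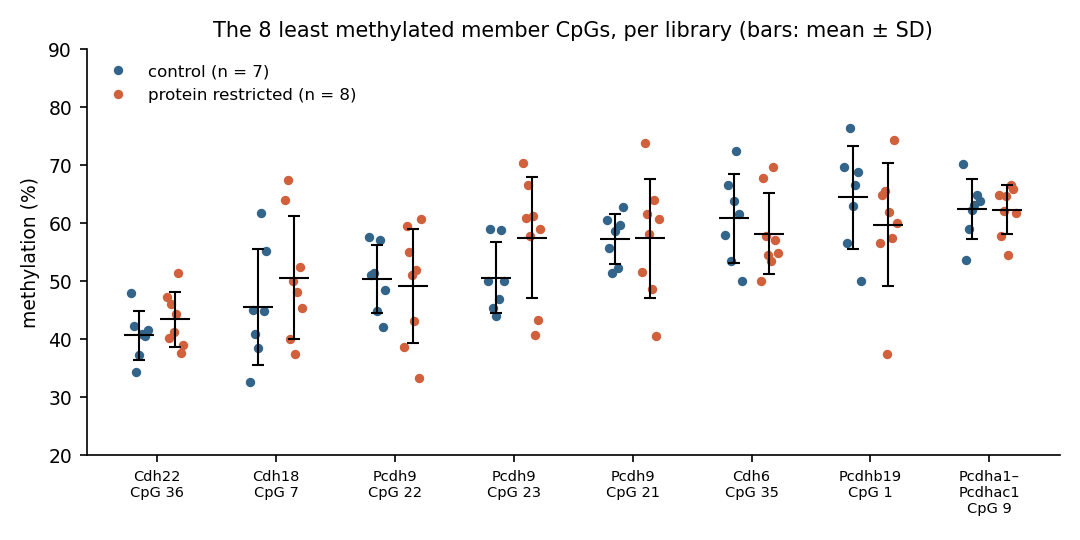
Methylation (%) in each library at the 8 member CpGs with the lowest means, with mean ± SD bars for 7 control and 8 protein restricted libraries; CpGs are numbered along the chromosome within a gene. In each of the 8 the diets overlapped; Cdh22 CpG 36 was the lowest, at 42.16% over all libraries.

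The 28 member CpGs under 80% had a median of 38.5 reads per library (23.0 to 68.5) and the other 691 a median of 31.7. Since every listed position had at least 11 methylated reads in each library, a CpG of lower level is listed only at higher depth, and the depths of these sets cannot be compared. The spread between libraries of 1 diet was wider at the low CpGs, a median SD of 7.32 points against 2.38, while the dispersion, which sets the observed variance against that of binomial counting at the same level and depth, had a median of 0.923 in the low CpGs and 0.948 in the others.

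Whether protein restriction went with a change at any of these CpGs was tested with a quasi-binomial model of methylated and unmethylated reads, with p adjusted over all 204492 CpGs. None of the 719 member CpGs passed at an adjusted p of 0.05, and none of all CpGs did (0%). At an unadjusted p under 0.05 there were 27 of 719 (3.76%), against 3.79% of all CpGs. Higher in the protein restricted group were 15 of them (1.89% of all CpGs were) and lower 12 (1.9% of all), so the members stood at the background. By limma none passed either; under 0.05 unadjusted were 34 (4.73%) on percentages, against 4.56% of all CpGs, and 37 (5.15%) on logit values, against 4.56%. None of the 35 clustered CpGs was among the 27, and the smallest unadjusted p there was 0.064, at a Pcdha CpG of 99.36%. The median absolute difference between diets was 0.904 points over the members and 0.903 over all CpGs.

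Most of the 27 were small steps at almost fully methylated CpGs, as were most of all CpGs at such a p. The median absolute difference was 2.31 points in the 27 and 2.66 in all 7754. In 19 of the 27 (70.4%) every library of 1 diet was at 100%, against 52.3% of all CpGs at such a p. A mean of at least 90% was found in 25 of the 27, and in 7097 of the 7754. The smallest p, 0.00806, belonged to Cdh22 CpG 18. It was at 100% in all 7 control libraries and at 85.71%, 97.83% and 100% (lowest, median and highest) in the protein restricted ones, of which 4 were also at 100%. Cdh13 CpG 55 went the other way, with all 8 protein restricted libraries at 100% and control libraries from 90.91% to 100% (median 94.44%), at a quasi-binomial p = 0.0103. Cdh4 CpG 56 had the same form, at 97.27% ± 3.48 in control against 100% in every protein restricted library (quasi-binomial p = 0.013). Cdh13 CpG 148 (100% in every control library, 97.75% ± 2.89 in protein restricted) and Cdh18 CpG 13 (100% and 97.65% ± 2.67) were on the lower side, with quasi-binomial p = 0.0141 and p = 0.0168. None had an adjusted p under 1, and in each the ranges touched at 100%.

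The 2 exceptions below 90% were Cdh23 CpG 38 and Cdh13 CpG 228. Cdh23 CpG 38 was at 65.00%, 82.35% and 90% (lowest, median and highest) in control libraries and 81.48%, 87.23% and 92.11% in protein restricted ones. The difference was 8.28 points, with a quasi-binomial p = 0.032 and an adjusted p of 1. At the neighbouring CpG 39 the diets were at 88.78% ± 9.28 and 88.63% ± 7.81. Cdh13 CpG 228 was the only member CpG to differ by 10 points (0.14% of the members, against 0.12% of all CpGs), and is named because its difference was seen. It lies 1380 bases outside the span of Cdh13, at position 119326309 of chromosome 8. Control libraries ranged from 66.07% to 80.65% (median 70.27%) and protein restricted libraries from 56.41% to 69.57% (median 62.56%), so that the ranges met between 66.07% and 69.57%. The means were 72.02% ± 4.80 and 62.00% ± 4.71. The difference was −10.0 points with a quasi-binomial p = 0.0362 and an adjusted p of 1.

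A gene's reads were then summed over its CpGs and tested in the same way, for the 57 member genes and all 13665 genes with at least 3 listed CpGs. A gene's percentage is from here on that of its summed reads, which gives deeper CpGs more weight. None of the 57 passed (0% of all genes did), and none had an unadjusted p under 0.05, against 3.04% of all genes. Limma on the mean percentage also passed none and had 1 of 57 at an unadjusted p under 0.05, Cdh8 (1.75%, against 4.9% of all genes). Since the nested clustered genes share CpGs, the 34 clustered genes among the 57 are far fewer independent values. The 23 single genes were higher in 11 and lower in 12, and no difference exceeded 1.72 points.

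The genes with the smallest p on the higher side were Cdh7, Cdh4, Cdh2, Cdh8, Pcdh15 and Cdh11. Cdh7 was at 85.17%, 88.54% and 90.73% (lowest, median and highest) in control libraries and 87.91%, 89.41% and 91.21% in protein restricted ones. The ranges overlapped, and 7 of 8 protein restricted libraries were above the control mean, a difference of 1.41 points (95% interval −0.219 to 3.06 from an exact permutation test of the libraries' percentages; quasi-binomial p = 0.0771, adjusted p = 0.999). Cdh4 rested on 63 CpGs and had the narrowest interval of these 6, at 97.88% ± 0.331 and 98.16% ± 0.200, 0.273 points apart (interval −0.0186 to 0.574, quasi-binomial p = 0.101). All 8 protein restricted libraries were above the control mean of Cdh2, at 98.93% ± 0.276 against 98.52% ± 0.834 (quasi-binomial p = 0.162). Cdh8 had the greatest difference of the 57, 1.72 points (−0.763 to 4.22), from 87.76% ± 1.66 to 89.48% ± 2.59. Pcdh15 was at 95.71% ± 0.571 and 96.23% ± 0.983, and Cdh11 at 96.71% ± 0.996 and 97.50% ± 1.82. Single libraries moved several of these differences: without control replicate 2 that of Cdh7 was 0.904 points, without control replicate 4 that of Cdh4 0.178, and without control replicate 7 that of Cdh2 0.19 in place of 0.418. For Pcdh15 it went from 0.523 to 0.329 without protein restricted replicate 4 and to 0.785 without replicate 7, and for Cdh11 from 0.786 to 0.518 without control replicate 1 and to 1.32 without protein restricted replicate 6.

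On the lower side were Cdh13, Cdh26, Pcdh7, Pcdh9, Pcdhb5 and Cdh23. Cdh13, with its 229 CpGs, was at 96.87%, 96.97% and 97.50% (lowest, median and highest) in control libraries and 96.69%, 96.91% and 97.11% in protein restricted ones. The ranges overlapped, and the difference was −0.182 points (95% interval −0.399 to 0.0273, quasi-binomial p = 0.138, adjusted p = 0.999). For the summed reads of these 229 listed CpGs, a difference beyond 0.399 points in either direction lay outside the interval. CpGs of the gene that are not listed were not measured. Pcdh7 was at 98.40% ± 0.529 and 97.81% ± 0.732, Cdh26 at 98.65% ± 0.555 and 98.22% ± 0.632, and Pcdh9 at 92.25% ± 1.18 and 91.43% ± 1.18. Pcdhb5, whose 4 CpGs all lie 1334 to 1386 bases before its span, was at 97.89% ± 0.690 and 96.80% ± 1.70. Cdh23 was at 97.30% ± 0.441 and 97.02% ± 0.494. Here too single libraries counted. The Cdh13 difference was −0.114 points without control replicate 2, and −0.11 with each CpG weighted alike. Without 1 library the difference went from −0.424 to −0.273 at Cdh26 (control replicate 2), from −0.582 to −0.387 at Pcdh7 (protein restricted replicate 8) and from −0.814 to −0.435 at Pcdh9 (control replicate 4). It went from −1.08 to −0.718 at Pcdhb5 (protein restricted replicate 2) and from −0.284 to −0.144 at Cdh23 (protein restricted replicate 6). With each CpG weighted alike it was −0.474 at Pcdh9 and −0.183 at Cdh23. All 12 intervals held 0, and each of the 12 had an adjusted p of 0.999 in the quasi-binomial test.

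The other members named for many CpGs, low means or a place in a cluster also had adjusted p of 0.999 where tested. Cdh22 (36 CpGs) stood at 94.46% ± 0.767 in control and 94.57% ± 0.997 in protein restricted libraries, and Cdh6 (35 CpGs) at 89.29% ± 1.96 and 88.96% ± 1.69, with intervals of −0.904 to 1.12 and −2.38 to 1.73 points. In the clusters, Pcdha1 to Pcdha7 were at 88.60% ± 0.624 and 89.28% ± 2.08, and Pcdha8 to Pcdha12 at 88.41% ± 0.578 and 88.97% ± 2.27. Pcdhac1 was at 87.42% ± 3.14 and 86.76% ± 3.47, and Pcdhac2 at 98.42% ± 0.970 and 98.21% ± 0.742. Pcdhga1 to Pcdhga4 and Pcdhgb1 were at 93.73% ± 0.792 and 93.55% ± 1.48. The 10 Pcdhg spans from Pcdhgb2 to Pcdhga10 that start further along were at 94.28% to 94.97% in control and 94.45% to 95.06% in protein restricted libraries, and Pcdhgb7, Pcdhga11, Pcdhgb8 and Pcdhga12, which start past all the low CpGs, at 97.76% ± 0.874 and 97.89% ± 0.877. Pcdhgc3, Pcdhgc4 and Pcdhgc5 shared 1 CpG, at 97.92% ± 2.87 and 96.28% ± 3.56. Of the Pcdhb genes with under 3 CpGs, Pcdhb2 was at 92.00% ± 4.14 and 87.69% ± 6.92 (unadjusted p = 0.076) and Pcdhb12 at 98.49% ± 1.07 and 98.37% ± 1.72.

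**Figure D5:**
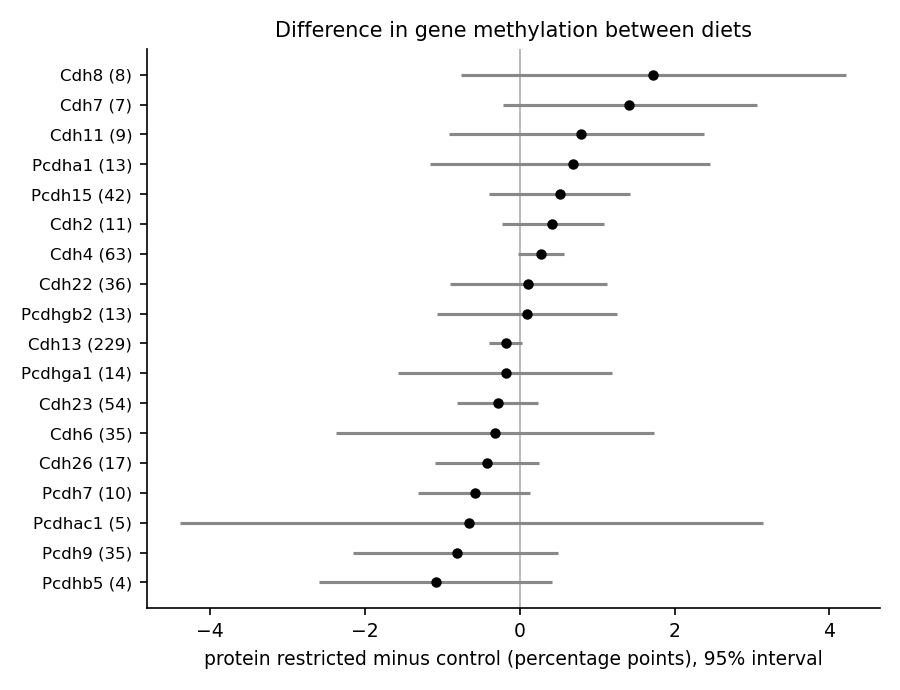
Difference in gene methylation (percentage points, protein restricted minus control) with its 95% interval, for genes chosen by smallest p, most CpGs or cluster membership, with the number of CpGs in parentheses. Of the clustered genes Pcdha1, Pcdhac1, Pcdhb5, Pcdhga1 and Pcdhgb2 are shown. The CpGs of Pcdhac1 lie within those of Pcdha1, and those of Pcdhgb2 within those of Pcdhga1, so these rows are not separate. Every interval held 0, and that of Cdh13 was among the narrowest.

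The spread of gene values between libraries was set against counting noise. Ratios above 2 were about as frequent among the single genes as among all genes. The counting noise was taken per CpG, but neighbouring CpGs can be read on the same fragment. Shared reads can raise the ratio, so a high ratio does not by itself show spread between libraries beyond counting noise. In Cdh11, Pcdh15 and Cdh1 the variance of the gene value within diets was 2.95, 2.56 and 2.12 times what binomial counting at the levels and read numbers of their CpGs gives, the only 3 of 23 single genes (13%) above 2, against 11.8% of all genes. At the level of single CpGs the greatest dispersions among middle levels were at Cdh23 CpG 39, Cdh7 CpG 4, Cdh18 CpG 7 and Pcdh15 CpG 14. Pcdh15 CpG 14 lay at 66.67%, 87.80% and 90.24% (lowest, median and highest) in control and 83.02%, 92.16% and 95.83% in protein restricted libraries, and the ranges overlapped.

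Genes that work with the members were looked at from 3 lists. Of 27 other genes of the cadherin superfamily (Fat, Dchs, Celsr, calsyntenins, desmosomal cadherins and Ret), 18 could be tested, and 0 passed (0% of all genes did). At an unadjusted p under 0.05 there were 0 in either direction, against 3.04% of all genes. The smallest p was at Fat2, a giant cadherin, at 98.14% ± 1.33 in control and 99.21% ± 0.592 in protein restricted libraries (quasi-binomial p = 0.0547), followed on the higher side by Dsc3, a desmosomal cadherin (98.12% ± 1.17 and 98.73% ± 0.766). Celsr1, a cadherin of planar cell polarity, was the first on the lower side, at 97.91% ± 0.416 and 97.59% ± 0.262. Of 14 catenins and plaque proteins, which tie cadherins to the cytoskeleton, 11 could be tested and 0 passed or had an unadjusted p under 0.05. Pkp4 was at 97.95% ± 0.294 and 98.37% ± 0.522, and Dsp (desmoplakin) at 90.89% ± 1.05 and 89.96% ± 1.54. Of 13 regulators of the clustered protocadherins, such as cohesin and DNA methyltransferases, 10 could be tested, again with 0 passed and 0 at an unadjusted p under 0.05. Since 3.04% of all genes had such a p, counts of 0 in lists this short do not set the lists apart. Among them Dnmt3a, a de novo DNA methyltransferase, was at 97.08% ± 0.890 and 97.48% ± 1.02. Nipbl, which loads cohesin, was at 98.37% ± 0.539 and 98.11% ± 0.38. The lists' median differences were −0.0205, −0.0258 and −0.0419 points, beside −0.0655 over the 23 single member genes, 0.130 over the 34 nested clustered ones and 0.000672 over all genes.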

How the data were processed

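Per the file headers, the authors deposited for each library methylated, unmethylated and total read counts per CpG. The submitters' processing notes name Bismark 0.7.12, Bowtie2 2.1.0 and build mm10, with no roles. The labels give no counting step or filter, and PCR duplicates cannot be told apart from molecules. All 204492 positions had at least 10 reads in every library and were tested. Percentages are methylated over total counts. A quasi-binomial model (dispersion at least 1, F test, 13 residual degrees of freedom), written in Python 3.11.15 with numpy 2.4.6, scipy 1.17.1 and pandas 2.3.3 and checked on simulated data, compared 7 control with 8 protein restricted libraries per CpG and per gene, with Benjamini-Hochberg adjustment over all tested. The simulated counts had binomial noise alone and changes larger than most differences here. They do not check the model where libraries spread further, or its power for small differences. Limma 3.58.1 (R 4.3.3) was an alternative, with others on coverage, flank, gene size and left-out libraries. Sets of CpGs are described with no test. Named genes were those with the 6 smallest p per direction, the 6 with most CpGs, the 8 lowest and all clustered ones; named CpGs had the 6 smallest p per direction (1 per gene), the 8 lowest means, the 4 largest dispersions or a start within 1 kb. Members, lists and rules were chosen with earlier results of these data known. Spans are from the RefSeq table of the same build; replicate numbers follow accession order and pair nothing.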

Additional observations from a re-analysis of the deposited data

Results flagged for a closer look

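Among the named genes and CpGs and the means of the sets and gene classes, 104 groups of libraries were examined. In 3 groups 1 library stood apart from the rest of its diet. Chance gives about 1 in 20 for independent, normally spread values, which values capped at 100% and nested sets are not. Cdh22 CpG 18 was at 85.71% in protein restricted replicate 7, with the other protein restricted libraries at 94.29% to 100%. Cdh4 CpG 34 was at 89.66% in protein restricted replicate 6, with the others at 96.15% to 100%. Pcdh15 CpG 39 was at 97.5% in protein restricted replicate 7, with all the others at 100%.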

How the results depend on the processing

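No CpG or gene, member or other, had an adjusted p under 0.05 in any of the alternatives run. At an unadjusted p under 0.05 member CpGs numbered 8 of 331 at a coverage minimum of 20 (2.42%, against 3.47% of all), and 23 to 35 of 719 with 1 library left out (3.2% to 4.87%, against 3.63% to 3.76% of all). Member genes at such a p numbered 0 with no flank or a 5 kb flank (3.16% and 3.22% of all genes). They also numbered 0 with at least 1 CpG or the coverage minimum of 20 (3.06% and 3.47% of all). With 1 library left out they numbered 0 (2.66% to 3.29% of all genes) except without control replicate 6. There Cdh7 had a quasi-binomial p = 0.0352, 1 of 57 (1.75%, against 2.8% of all genes). With so few genes, many of them nested, 0 does not set the members apart from all genes. The clustered minus single level stayed negative, at −5.35 points with no flank, −4.95 with a 5 kb flank, −6.88 at the coverage minimum of 20 and −6.99 with CpGs at most 300 bases apart averaged first (chosen after seeing the data), −4.53 from summed counts, −3.69 without Cdh13, and −4.24 to −4.09 with 1 library left out. With 1 library left out the diet difference was −0.0257 to 0.0647 points over all members, −0.149 to 0.153 over the clusters and −0.031 to 0.0602 over single genes. Summed counts gave −0.0368, −0.371 and −0.0277, no flank 0.0422, 0.281 and 0.0322, a 5 kb flank 0.0163, −0.163 and 0.0255, the coverage minimum −0.0768, 0.152 and −0.0915, and averaging within 300 bases 0.0397, 0.0686 and 0.0377, so these differences had no stable sign; each move was smaller than the spread between libraries. Of 41 named genes and CpGs 9 changed sign in at least 1 alternative, none of them past the threshold. Left-out libraries gave −0.12 to 0.308 points at Cdh22, −0.781 to 0.102 at Cdh6, −1.46 to 0.0334 at Pcdhac1, −0.434 to 0.201 at Pcdhga1, −0.154 to 0.372 at Pcdhgb2, −2.44 to 1.72 at Cdh23 CpG 39, −2.29 to 2.45 at Pcdh9 CpG 21, −2.83 to 1.09 at Pcdh9 CpG 22 and −1.62 to 1.13 at the Pcdha CpG before Pcdhac1. Limma on mean percentages gave −0.11 at Cdh22 and 0.32 at Pcdhga1; the cause was not tested. A coverage of about 30 reads limits what a single CpG can show. No paired analysis was possible because the replicate numbers follow accession order and the labels give no pairing.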
